A study of Mus musculus with 6 samples.

Results

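The receptors through which blood cells read interleukin 3, interleukin 5, GM-CSF, stem cell factor, interleukin 6, M-CSF and G-CSF were examined in mouse bone marrow cells carrying the leukaemia fusion gene MLL-AF9. All 19 array probe sets annotated to exactly 1 of the 10 receptor genes Il3ra, Il5ra, Csf2ra, Csf2rb, Csf2rb2, Kit, Il6ra, Il6st, Csf1r and Csf3r were taken, out of 18193 genes with such a probe set. The cells labelled MLL-AF9/Mn1null (n = 3), in which Mn1 had been deleted with CRISPR-Cas9, were compared with the cells labelled MLL-AF9/Mn1wt (n = 3). Mn1 encodes a transcriptional cofactor. Per the labels, the cells of both groups were sorted, carried an EGFP control vector and grew in serum-containing medium with mouse interleukin 3, human interleukin 6 and mouse stem cell factor, so that both groups received ligands of the receptors studied. The labels do not give the number of clones, the age of the donor mice or the origin of the replicates, so p-values here reflect no more than the scatter among these 6 samples, part of which may be technical.

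The receptors for interleukin 3, interleukin 5 and GM-CSF each pair a ligand-specific alpha chain, encoded by Il3ra, Il5ra and Csf2ra, with the common signalling beta chain encoded by Csf2rb, and mice have an additional beta chain, encoded by Csf2rb2, that serves interleukin 3 alone. Interleukin 6 binds the chain encoded by Il6ra and signals through gp130, encoded by Il6st and shared with other cytokines, while Kit and Csf1r are receptor tyrosine kinases and Csf3r encodes the G-CSF receptor. In the bone marrow these receptors support progenitors and the mast cell, eosinophil, neutrophil and monocyte lineages.

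Deletion of Mn1 went with opposite changes among these receptors. The beta chains rose, Csf2rb2 by 7.98-fold and Csf2rb by 3.53-fold and 2.57-fold on its 2 probe sets. The interleukin 6 receptor chains fell, Il6ra by 4.48-fold and Il6st by 3.19-fold on the probe set of each with the highest mean signal, and the M-CSF receptor Csf1r fell by 2.83-fold on its corresponding probe set. With the mean of the probe sets of each gene the falls were smaller, -1.30 for Il6ra, -0.76 for Il6st and -0.95 for Csf1r on the log2 scale, and each passed. The receptor for stem cell factor, Kit, differed by -0.17 and -0.09 on the log2 scale and did not pass the test. Values are log2 signals per probe set, a difference is the Mn1null mean minus the Mn1wt mean on that scale, and a probe set passed at a limma adjusted p under 0.05.

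Of the 19 probe sets, 4 were higher and 8 lower in Mn1null, and 7 did not pass. Over all 45037 probe sets tested, 27.8% passed, 13.2% higher and 14.7% lower. The groups did not overlap for 15 of the 19 probe sets, beside 41.1% of all probe sets. A called difference of at least 2-fold was found for 7 of the 19, 3 higher and 4 lower, beside 3.62% of all probe sets (2.15% higher and 1.47% lower). The median difference of the 19 was -0.20 and the median size 0.46, beside a median size of 0.14 over all probe sets. These shares are not matched for signal. Of the 19, 17 had a mean signal over the 50th percentile of probe set means, as had 22520 of the 45037. When only probe sets over that percentile were tested, 5 of the 17 were higher and 9 lower, while 12772 of the 22520 passed.

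**Figure D1:**
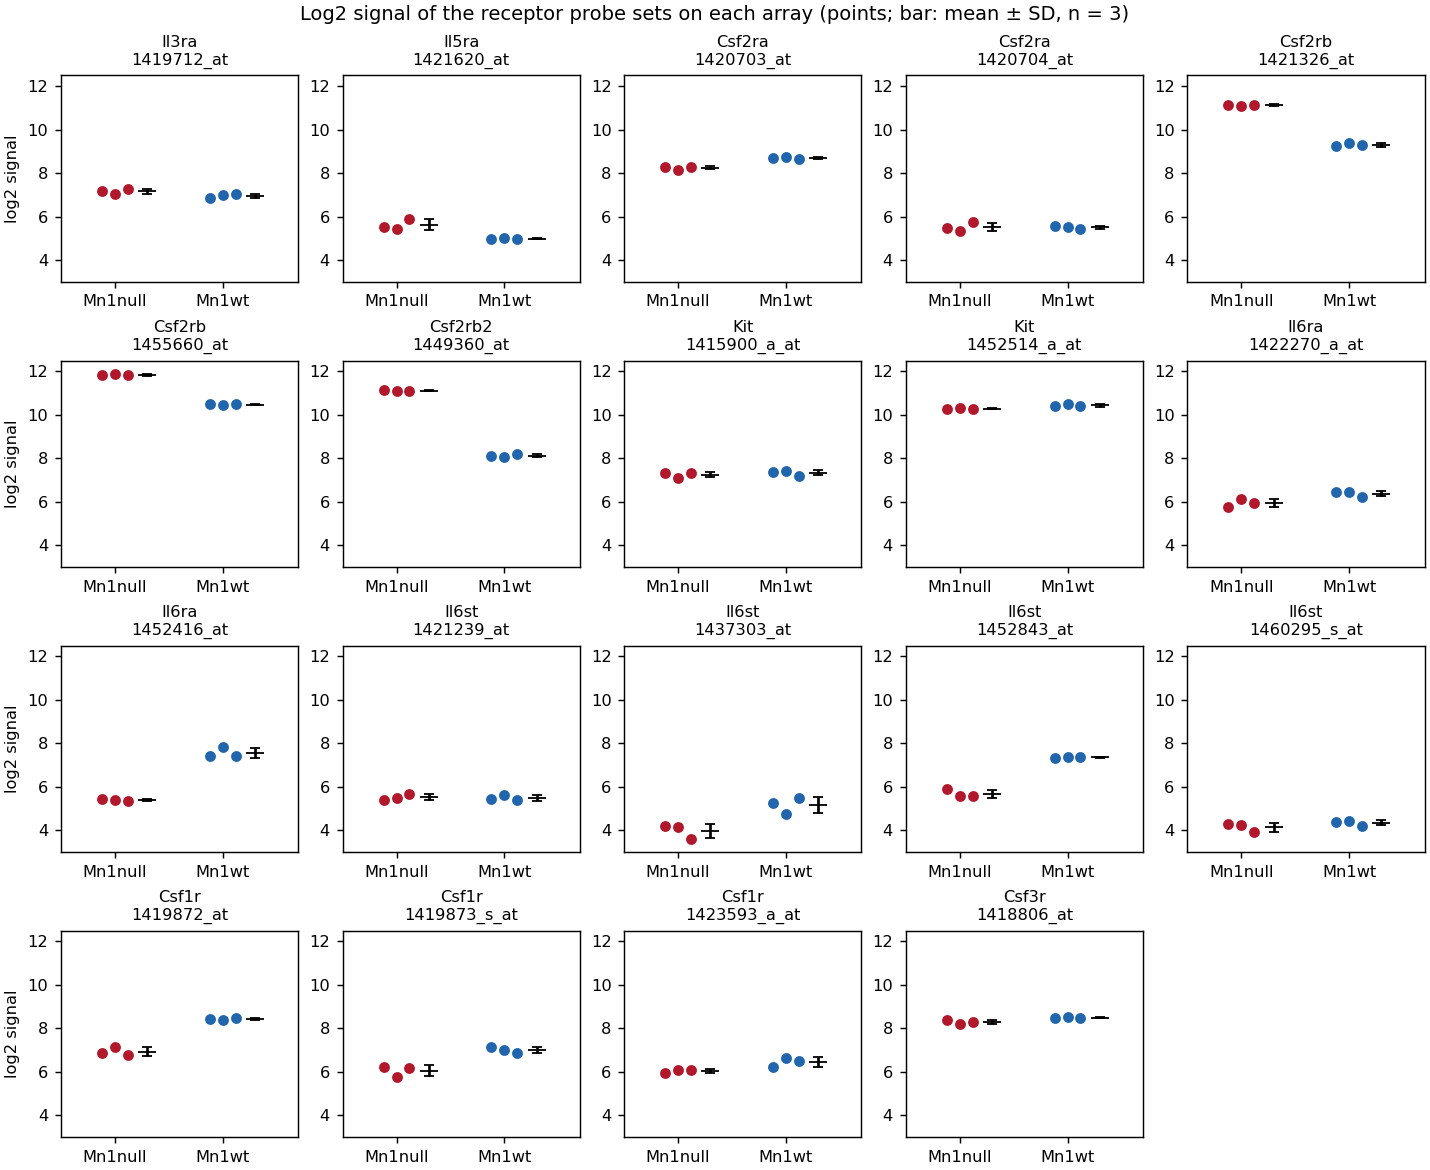
Log2 signal (vertical axis) of the 19 receptor probe sets on each of the 6 arrays, with 1 panel per probe set, Mn1null points in red and Mn1wt points in blue, and the mean ± SD (n = 3) as a black bar beside each group. The Mn1null points of Csf2rb2 lie between 11.09 and 11.14, above Mn1wt points between 8.05 and 8.18, and the groups overlap in 4 panels.

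Array medians lay between 5.16 and 5.22, and arrays correlated at 0.997 to 0.998 within a group and at 0.981 to 0.983 between groups. No array stood apart from its group. Mn1 was read by 1 probe set, at 4.21, 4.12 and 4.07 in Mn1null against 4.49, 4.12 and 4.44 in Mn1wt, and the difference of -0.22 did not pass (adjusted p = 0.182). Its signal was low in both groups, with a Mn1wt mean of 4.35 below 5.21, the 50th percentile of probe set means. Where that probe set lies relative to the deleted part was not checked here. For both reasons it does not check the labels. The labelling controls, bacterial transcripts of the kind added before labelling, differed as well, their 5′ probe sets averaging 6.47 ± 0.059 in Mn1null and 7.32 ± 0.10 in Mn1wt (SD, n = 3 each) and their 3′ probe sets differing by -0.30. Their part in the receptor results was not tested, and it touches every comparison below.

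The interleukin 3 beta chain Csf2rb2 had the largest difference of the 10 genes. Its signal was 11.14, 11.09 and 11.10 in Mn1null against 8.12, 8.05 and 8.18 in Mn1wt. The groups were far apart and each was tight. The difference was 3.00 ± 0.062 (SE, 95% interval 2.85 to 3.14, limma adjusted p = 1.50e-07), and 99.6% of all probe sets had a smaller difference in size. The 250 bases before the annotated start of Csf2rb2 are shown because this gene had the largest rise, beside those of Il6ra, which had the largest fall. They come from RefSeq (GRCm38.p6), lie at chr15:78305722-78305971 and chr3:89913197-89913446, both on the minus strand, and are written 5′ to 3′ with capitals at matches on either strand to GATAA (GATA factors), GAGGAA (PU.1), TTGCNNAA (C/EBP factors), TTCNNNGAA (STAT factors) or TGTGGT (RUNX factors).
Csf2rb2: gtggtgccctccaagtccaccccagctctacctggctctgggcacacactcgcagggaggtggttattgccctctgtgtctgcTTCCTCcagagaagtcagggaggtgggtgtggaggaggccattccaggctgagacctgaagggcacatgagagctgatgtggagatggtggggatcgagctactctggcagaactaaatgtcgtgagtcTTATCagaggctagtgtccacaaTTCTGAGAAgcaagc
Il6ra: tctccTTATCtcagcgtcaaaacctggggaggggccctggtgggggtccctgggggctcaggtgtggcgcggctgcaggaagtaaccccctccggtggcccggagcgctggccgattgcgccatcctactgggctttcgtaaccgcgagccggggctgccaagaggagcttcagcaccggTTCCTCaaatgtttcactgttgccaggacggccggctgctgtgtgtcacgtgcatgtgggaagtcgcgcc

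The Csf2rb2 window holds 1 match each to the GATA, PU.1 and STAT letters, and the Il6ra window 1 match each to the GATA and PU.1 letters, with no overlap between motifs. Of 32851 windows of this length before annotated starts, 22.6% hold the GATA letters, 23.3% the PU.1 letters, 9.56% the C/EBP letters, 7.02% the STAT letters and 14% the RUNX letters. A promoter entry was matched for 8 of the 10 genes. Among the others with an entry, Il5ra has 1 GATA match, Csf2ra 2 PU.1 matches, Kit and Csf3r 1 PU.1 match each, Il3ra 1 C/EBP match and Il6st none of the 5 motifs. By the annotated bounds of the genes, the windows of Csf3r and Il3ra lie inside the gene, and that of Csf2ra reaches into it. A match is only an occurrence of these letters.

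The common beta chain Csf2rb was read by 2 probe sets. On probe set 1455660_at its signal was 11.82, 11.86 and 11.82 in Mn1null against 10.49, 10.45 and 10.48 in Mn1wt, a difference of 1.36 ± 0.056 (SE, adjusted p = 3.07e-06). On probe set 1421326_at it was 11.16, 11.09 and 11.15 in Mn1null against 9.25, 9.41 and 9.28 in Mn1wt, a difference of 1.82 ± 0.068 (adjusted p = 2.03e-06). Neither probe set overlapped between groups. Csf2rb and Csf2rb2 are closely related genes, and 1 further probe set, annotated to both and so not counted among the 19, differed by 1.26 (95% interval 1.07 to 1.46). Whether the probe sets named for 1 of these genes also read the other was not checked.

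Csf2rb2 and Csf2rb lie next to each other on chromosome 15. Of the 7 other protein-coding genes annotated within 100 kb of the pair, Mpst rose by 0.60, Tst by 0.47 and Kctd17 by 0.29 in Mn1null (adjusted p between 0.000488 and 0.0356). Mpst and Tst encode sulfurtransferases. Ncf4, a subunit gene of the phagocyte NADPH oxidase and the annotated neighbour on the Csf2rb2 side, stood at 10.06 ± 0.031 in Mn1null and 10.001 ± 0.0074 in Mn1wt (SD, n = 3 each; adjusted p = 0.531). Pvalb, Tex33 and Tmprss6 did not pass either.

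The ligand-specific alpha chains did not move in 1 direction, and the 95% intervals of their differences reached at most 0.93. Those of the beta chain probe sets annotated to 1 gene began at 1.23, and that of the probe set annotated to both beta chains at 1.07. Il3ra, the interleukin 3 alpha chain, was at 7.16, 7.06 and 7.29 in Mn1null against 6.86, 6.99 and 7.03 in Mn1wt. The Mn1null values lay above the Mn1wt values by a narrow margin, and the test was not passed at 0.21 (95% interval 0.014 to 0.40, adjusted p = 0.111, between 0.0489 and 0.282 over 15 alternatives). Il5ra, the interleukin 5 alpha chain, was at 5.54, 5.45 and 5.92 in Mn1null against 4.96, 4.996 and 4.98 in Mn1wt. It rose by 0.66 ± 0.12 (SE, adjusted p = 0.00448), with the highest value on Mn1null replicate 3, and the difference was 0.52 without that array. Il5ra was read by 1 probe set, and its Mn1wt mean of 4.98 lay below 5.21, the 50th percentile of probe set means.

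Csf2ra, the GM-CSF alpha chain, gave unequal results on its probe sets. On 1420703_at it fell by 0.46, to 8.29, 8.17 and 8.29 in Mn1null against 8.71, 8.74 and 8.67 in Mn1wt (adjusted p = 0.00134). On 1420704_at it stood at 5.48, 5.34 and 5.74 in Mn1null against 5.55, 5.53 and 5.43 in Mn1wt. There the groups overlapped, 0.02 was measured between them (95% interval -0.23 to 0.27, adjusted p = 0.929), and the mean of both probe sets did not pass (-0.22, adjusted p = 0.0529).

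**Figure D2:**
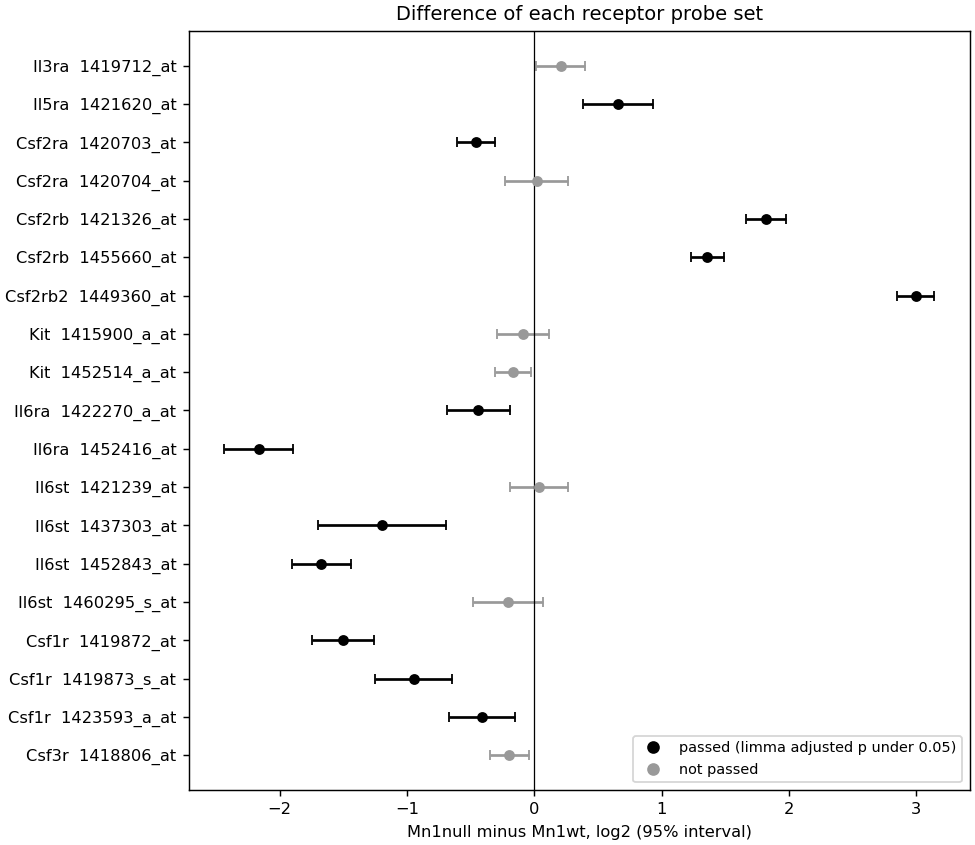
Difference of each of the 19 receptor probe sets, Mn1null minus Mn1wt on the log2 scale (horizontal axis), with its 95% interval from the limma model. Black points passed at an adjusted p under 0.05 and grey points did not. Csf2rb2 (3.00) stands at the high end and Il6ra probe set 1452416_at (-2.17) at the low end.

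Kit, the receptor tyrosine kinase for stem cell factor, was read by 2 probe sets, neither of which passed. On 1452514_a_at it was at 10.27, 10.30 and 10.26 in Mn1null against 10.40, 10.51 and 10.41 in Mn1wt. The Mn1null values were all lower, yet -0.17 (95% interval -0.31 to -0.025) missed the threshold over all probe sets (adjusted p = 0.0846, between 0.0056 and 0.219 over 14 alternatives, of which 4 passed). On 1415900_a_at it was at 7.30, 7.10 and 7.32 in Mn1null against 7.37, 7.42 and 7.21 in Mn1wt. The groups overlapped there, and the interval of the difference ran from -0.30 to 0.12.

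Genes of both chains of the interleukin 6 receptor fell, Il6ra on 2 of 2 and Il6st on 2 of 4 probe sets. On Il6ra probe set 1452416_at the signal was 5.43, 5.38 and 5.33 in Mn1null against 7.39, 7.81 and 7.43 in Mn1wt, a difference of -2.17 ± 0.12 (SE, adjusted p = 1.14e-05). On 1422270_a_at it was 5.76, 6.11 and 5.93 in Mn1null against 6.44, 6.44 and 6.23 in Mn1wt. The groups were apart on both, but the difference on 1422270_a_at was -0.44 (adjusted p = 0.0169), and its call was lost when any 1 of 3 arrays was left out, Mn1null replicate 3, Mn1wt replicate 1 or Mn1wt replicate 2 (adjusted p up to 0.0603).

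Il6st, which encodes gp130, was read by 4 probe sets that did not move alike. On 1452843_at it was at 5.90, 5.57 and 5.55 in Mn1null against 7.32, 7.35 and 7.37 in Mn1wt, a difference of -1.67 ± 0.099 (SE, adjusted p = 1.93e-05). On 1437303_at it was at 4.20, 4.13 and 3.61 in Mn1null against 5.27, 4.76 and 5.49 in Mn1wt, a difference of -1.20 ± 0.22 (adjusted p = 0.00462). The Mn1null mean on 1437303_at, 3.98, was below 4.07, the 30th percentile of the probe set means, where RMA compresses differences. On 1421239_at and 1460295_s_at the groups overlapped and the differences were 0.04 and -0.21 (adjusted p = 0.829 and 0.253). Probe positions were not used here, so probe sets of different transcript ends or forms were not told apart.

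Unequal calls within a gene were found for Csf2ra and Il6st here, and for 40.4% of the 9010 genes with several probe sets over the whole array. Calls in opposite directions, which none of the 6 receptor genes with several probe sets had, were found for 1.41% of those 9010.

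Csf1r, the M-CSF receptor that drives monocyte and macrophage development, fell on each of its 3 probe sets. On 1419872_at it was at 6.87, 7.15 and 6.76 in Mn1null against 8.44, 8.37 and 8.48 in Mn1wt, a difference of -1.50 ± 0.10 (SE, adjusted p = 4.39e-05). On 1419873_s_at it was at 6.21, 5.78 and 6.18 in Mn1null against 7.13, 7.003 and 6.87 in Mn1wt, a difference of -0.95 (adjusted p = 0.0012). On 1423593_a_at it was at 5.94, 6.09 and 6.09 in Mn1null against 6.23, 6.64 and 6.48 in Mn1wt. No probe set overlapped between groups, but the size ranged from -1.50 to -0.41, and the smallest (adjusted p = 0.0286) lost its call when any array other than Mn1wt replicate 1 was left out (adjusted p up to 0.0903).

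Csf3r, the G-CSF receptor of the neutrophil lineage, was at 8.40, 8.22 and 8.29 in Mn1null against 8.50, 8.50 and 8.49 in Mn1wt. The Mn1null values were all lower, by -0.20 on average (95% interval -0.35 to -0.041), and the difference did not pass over all probe sets (adjusted p = 0.0654, between 0.0198 and 0.179 over 15 alternatives, of which 5 passed). Set side by side, the difference was -1.50 for the M-CSF receptor on 1419872_at and -0.20 for the G-CSF receptor, and the difference between the 2 was not tested.

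The genes of the ligands, given with 1 probe set per gene as for all lists below, were mostly low. Of 8 ligand genes, 2 rose and 6 missed the threshold, and the median was 0.03, while 34.7% of all 18193 genes passed (16.7% higher and 18.0% lower). Il6 was at 10.30, 10.21 and 10.22 in Mn1null against 6.72, 6.84 and 6.73 in Mn1wt, an 11.2-fold difference (3.48 ± 0.064 on the log2 scale, SE, adjusted p = 9.24e-08). The mouse Il6 signal was therefore higher in the same arrays in which Il6ra and the 2 called probe sets of Il6st were lower. The interleukin 6 added to the medium was human protein. Csf1, the M-CSF gene, was at 6.79, 6.83 and 6.99 in Mn1null against 6.29, 6.16 and 6.24 in Mn1wt, a rise of 0.64 (adjusted p = 0.000558). Its other probe sets gave 0.33, which passed, and 0.12 and 0.06, which did not. The probe set that gave 0.33 was low, with means of 4.37 in Mn1null and 4.04 in Mn1wt.

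The other 6 ligand genes had mean signals of at most 4.94 in either group. They were Il3, Il5, Csf2, Kitl, Il34, which encodes another ligand of the M-CSF receptor, and Csf3. Their differences ran from -0.18 for Il5 to 0.12 for Csf2, and the groups overlapped for each of them. Kitl, the stem cell factor gene, fell by 0.81 on 1 of its other probe sets, 1415855_at (adjusted p = 0.000574), and did not pass on the rest. On 1415855_at the means were 3.32 in Mn1null and 4.13 in Mn1wt, the former below 4.07, the 30th percentile of probe set means.

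**Figure D3:**
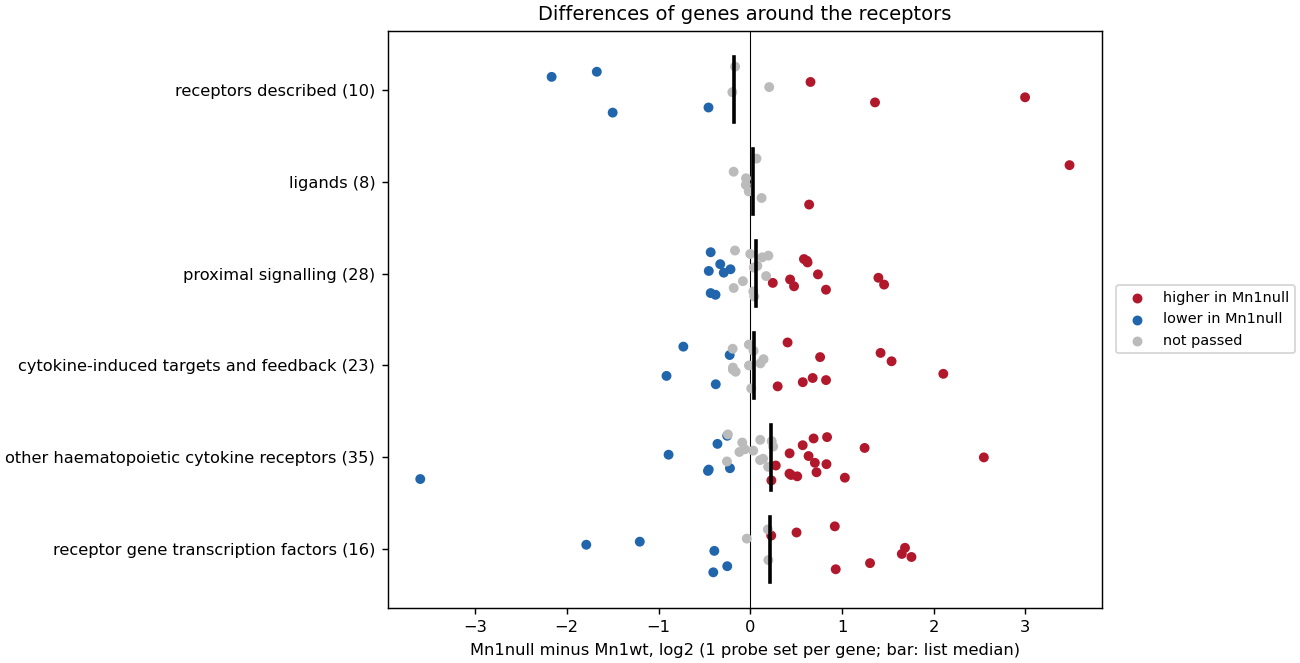
Differences, Mn1null minus Mn1wt on the log2 scale (horizontal axis), of the 10 receptor genes and of the 5 lists of genes around them, with 1 point per gene (1 probe set each), the number of genes in brackets and the list median as a black bar. Red points were higher and blue points lower in Mn1null, and grey points did not pass. Il6 (3.48) is the far point among the ligands and Ccr2 (-3.60) among the other receptors.

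Genes that carry the signal from these receptors moved in both directions. Of 28 kinases, phosphatases, adaptors and STAT factors, 10 rose and 7 fell, while 11 missed the threshold, and the median was 0.06. The share called was 60.7%, beside 34.7% of all 18193 genes. Of the 28, 27 had mean signals over the 50th percentile of probe set means, as had 11450 of all genes, so these shares are not matched for signal. Jak2, the kinase bound to the beta chains, was at 10.01, 9.98 and 9.996 in Mn1null against 8.49, 8.51 and 8.80 in Mn1wt, a 2.63-fold rise (1.40 ± 0.093, SE, adjusted p = 3.53e-05), and its other probe set gave 1.64. The adaptor gene Gab3 rose by 1.46 and the PI3-kinase subunit gene Pik3cg by 0.74. The STAT genes Stat3, Stat5a and Stat5b rose by 0.62, 0.62 and 0.59. Ptpn11, which encodes the phosphatase SHP2, fell by 0.45, the adaptor gene Dok1 by 0.43 and the 14-3-3 gene Ywhae by 0.43. Probe sets 1421196_at of Ptpn11 and 1435702_s_at of Ywhae did not pass.

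Genes that these cytokines are known to induce, among them feedback inhibitors, also moved in both directions. Of 23, 9 rose and 4 fell, while 10 missed the threshold, and the median was 0.04. The share called was 56.5%, beside 34.7% of all genes, and 22 of the 23 lay over the 50th percentile. The immediate early gene Egr1 rose 4.30-fold, to 10.58, 10.57 and 10.58 in Mn1null against 8.47, 8.43 and 8.51 in Mn1wt. Osm, the oncostatin M gene and a STAT5 target, rose by 1.54 and Ccnd3, which encodes cyclin D3, by 0.83, with 0.61 and 0.01 on other probe sets of Ccnd3. Among the falls, Dusp6, a phosphatase of the ERK pathway, fell by 0.91, Spred1, an inhibitor of the same pathway, by 0.73 and the kinase gene Pim3 by 0.22. Spred1 was called in opposite directions, since its probe set 1428777_at rose by 0.35, and the other probe sets of Pim3 did not pass. Feedback inhibitors thus moved both ways. Socs1 rose by 1.42 and Cish by 0.68, while Socs2, Socs3 and Spry2 did not pass.

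Among 35 other cytokine and chemokine receptor genes, 16 rose and 7 fell, while 12 missed the threshold, and the median was 0.23. The share called was 65.7%, beside 34.7% of all genes, and 28 of the 35 lay over the 50th percentile. Crlf2, the receptor chain for thymic stromal lymphopoietin, rose by 1.03, Tgfbr2 by 0.84 and Il10rb by 0.83, although the other probe sets of Tgfbr2 and Il10rb did not pass. Ccr2, the chemokine receptor of inflammatory monocytes, was at 4.83, 4.46 and 4.92 in Mn1null against 8.37, 8.22 and 8.42 in Mn1wt, a difference of -3.60 ± 0.13 (SE, adjusted p = 1.53e-06). Its other 3 probe sets gave -2.71, -1.48 and -0.46, which passed as well, and the low Mn1null signal may compress these differences. The interferon receptor genes Ifnar1 and Ifnar2 fell by 0.46 and 0.45, and 1 other probe set of each did not pass.

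Of 16 transcription factors known to act on receptor genes of these lineages, 8 rose and 5 fell, while 3 missed the threshold, and the median was 0.21. The share called was 81.2%, beside 34.7% of all genes, and 15 of the 16 lay over the 50th percentile. Gata1 rose by 1.76, Gfi1b by 1.69 and Gata2 by 1.65, factors of the erythroid and megakaryocyte lineages, with Gata1 and Gata2 also active in mast cells. Irf8, a factor of monocyte development, fell by 1.79 and Cbfb, the partner of RUNX factors, by 0.40. Klf4 fell by 1.20, with a Mn1null mean of 4.06 that lies below the 30th percentile of probe set means, so this difference may be compressed, and its other probe set gave -1.88.

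Markers of several cell types moved in the same arrays. Beside each marker list stands the share over all 18193 genes, of which 34.7% passed, 16.7% higher and 18.0% lower. Of 13 mast cell and basophil markers, 9 rose and 0 fell by limma (0 lower at an unadjusted p under 0.05 as well), and their mean log2 signal lay between 8.56 and 8.59 in Mn1null and between 6.91 and 6.96 in Mn1wt. Of 5 eosinophil markers, 4 rose and 0 fell by limma (0 lower also at an unadjusted p under 0.05), with means between 7.45 and 7.60 in Mn1null and between 5.10 and 5.21 in Mn1wt. Cma1, Tpsb2, Tpsab1 and Mitf of the mast cell list did not pass, nor did Ccr3 of the eosinophil list. All of these but Mitf had means of at most 5.07 in both groups. Among the mast cell rises, that of Mcpt4 (3.80 in Mn1null against 3.54 in Mn1wt) lay below the 30th percentile of probe set means. Listed genes with no probe set annotated to them alone were left out, among them Ear1, Ear2 and Ear6 of eosinophils and Il1rl1 and Prss34 of mast cells and basophils. Of 7 megakaryocyte markers, 3 rose and 2 fell, with means between 7.08 and 7.19 in Mn1null and between 6.52 and 6.62 in Mn1wt. Itga2b, the platelet integrin chain CD41, averaged 11.54 in Mn1null and 7.92 in Mn1wt, and Vwf and Gp9 also rose, while Pf4 and Ppbp fell. The mast cell and eosinophil lists moved in the same direction as Csf2rb2, Csf2rb and Il5ra, and their part in those rises was not tested. The megakaryocyte list moved in both directions. Gata2, named above, is also among the mast cell and basophil markers that rose. In bulk RNA, more or fewer cells of a type and more or less RNA per cell cannot be told apart.

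Of 15 monocyte and macrophage markers, Csf1r among them, 12 fell and 1 rose, and their means lay between 6.62 and 6.77 in Mn1null and between 8.58 and 8.71 in Mn1wt. Adgre1 was the marker that rose, by 1.11 (limma adjusted p = 0.000218). By its mean, this list fell. This list moved in the same direction as Il6ra and Il6st, and as Csf1r, which it holds, and its part in those falls was not tested. Ccr2, Irf8 and Klf4, named above, are also among its markers that fell, so those are not separate results. The granule genes Mpo, Elane, Prtn3 and Ctsg of immature myeloid cells had means above 12.7 in both groups. Mpo rose by 0.28, Prtn3 fell by 0.46 and Ctsg by 0.27, and Elane did not pass. Of 13 neutrophil markers, these granule genes among them, 7 rose and 3 fell, with means between 9.79 and 9.83 in Mn1null and between 9.44 and 9.50 in Mn1wt. Single differences ran from -4.53 for Mmp8 to 3.28 for Ngp, so the list means hide large opposed changes.

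Markers of other cell types gave mixed results. Of 6 T and NK cell markers 0 passed limma's test (also 0 at an unadjusted p under 0.05), and their means lay between 5.08 and 5.19 in Mn1null and between 5.08 and 5.17 in Mn1wt. Of 7 B cell markers 1 rose and 1 fell, of 8 dendritic cell markers 2 rose and 3 fell, and of 8 erythroid markers 2 rose and 1 fell. Of 8 stromal and endothelial markers 2 rose and the others did not pass. The stromal and endothelial rises were those of Pecam1 and Pdgfrb, while the collagen genes Col1a1, Col1a2 and Col3a1 had means of at most 5.50. RMA values do not reach 0, so a low mean is no count of absent transcripts.

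**Figure D4:**
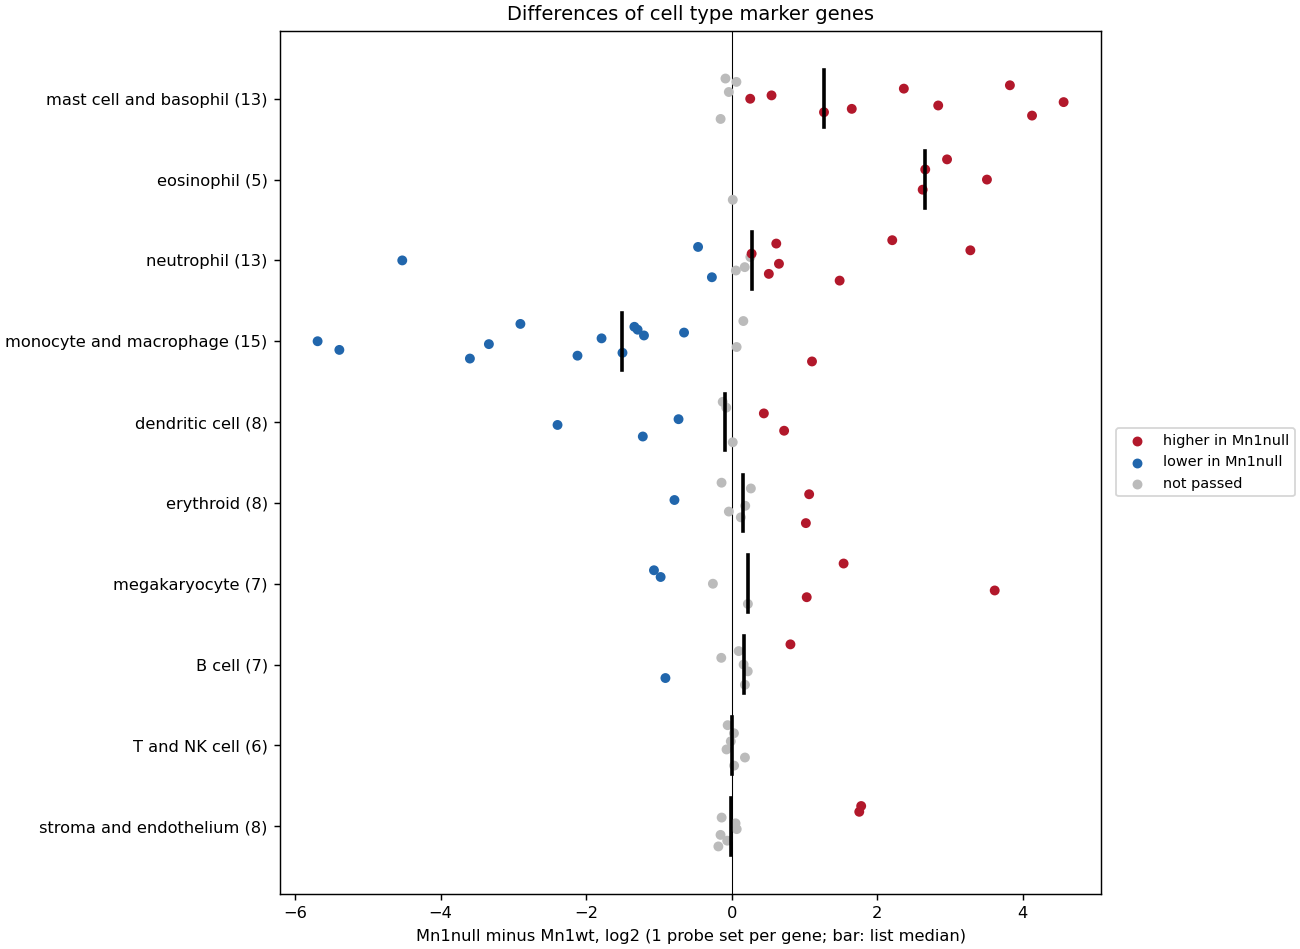
Differences, Mn1null minus Mn1wt on the log2 scale (horizontal axis), of cell type marker genes, with 1 point per gene (1 probe set each), the number of genes in brackets and the list median as a black bar. Red points were higher and blue points lower in Mn1null, and grey points did not pass. The mast cell and basophil median is 1.27, the eosinophil median 2.66 and the monocyte and macrophage median -1.50.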

How the data were processed

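Each of the 6 samples was read on its own one-colour Affymetrix mouse array. The authors deposited log2 signals per probe set, for which the submitters' processing notes name RMA. That method corrects background, forces arrays to 1 common distribution by quantiles and combines the probes of a set, which removes differences in total RNA and compresses low signals. The software version was not stated.

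Of 45101 probe sets, 64 controls were left out and 45037 tested. The platform annotation named 1 gene for 34945, several for 932 and none for 9160, and 34741 were matched by Entrez identifier to RefSeq (GRCm38.p6), with 0 symbols changed. No filter was applied, so all 19 receptor probe sets were tested. Groups were compared with limma 3.58.1 in R 4.3.3 (lmFit, eBayes, no block, 2-sided, Benjamini-Hochberg adjustment over all probe sets tested, threshold 0.05), after a test on simulated data. Lists used the probe set with the highest mean per gene. Of each list around the receptors, up to 3 called genes per direction with the smallest p were named, and all ligands. Spred1 at 1428777_at, Kitl at 1415855_at, the chromosome 15 neighbours, the marker genes named and the promoters shown were chosen after their values were seen. So were the STAT genes and the feedback inhibitors Socs1, Cish, Socs2, Socs3 and Spry2, which were named beyond that rule. The receptors and lists were chosen with earlier results of these data known. The number of arrays limits the precision.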

Additional observations from a re-analysis of the deposited data

How the results depend on the processing

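The 4 rises and 8 falls among the receptor probe sets were recomputed under 17 alternatives. The rises numbered 3 to 5 and the falls 4 to 10. The falls numbered 6 of 10 genes with 1 probe set per gene and 4 of 10 with the mean of the probe sets of each gene, where Csf2ra (-0.22, adjusted p = 0.0529) and Kit (-0.13, adjusted p = 0.136) did not pass. They numbered 5 of 13 probe sets without those of shared or alternative design, by fewer features. The whole table gave 12528 calls, 7035 with 1 probe set per gene and 6659 with the mean per gene, again over fewer features. Leaving out 1 array gave 10484 to 10888 calls in all, 4 rises in each case and 6 to 8 falls. Of 293 recomputed differences of single probe sets or genes, 267 kept direction and side of the threshold, 11 lost the call, 10 gained it and 5 turned sign. The sign turned only for 2 probe sets that did not pass: Csf2ra on 1420704_at, at -0.0070 with array weights and between -0.092 and 0.11 without single arrays, and Il6st on 1421239_at, between -0.041 and 0.11 without single arrays. The cause was not tested. Gained calls were those of Kit on 1452514_a_at, Csf3r and Il3ra, mostly with filters on low signal or 1 probe set per gene, which test fewer features. With the replicate number as a block, 4 receptor probe sets rose, 8 fell and 11196 probe sets were called in all, and it changed no receptor call. Deviations from the group means correlated at -0.036, 0.078 and 0.023 between arrays of the same number, so the numbers were not taken to pair the samples. Signals near the floor limit what can be seen for Il6st on 1437303_at and 1460295_s_at, Klf4, Ccr2 in Mn1null and 6 ligand genes.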
